A study of Mus musculus with 34 samples.

Results

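The 4 oogenesin genes Oog1, Oog2, Oog3 and Oog4 and the 3 oocyte secreted protein genes Oosp1, Oosp2 and Oosp3 were followed through early mouse development. They were taken by symbol, and all 7 were listed among the 49686 symbols of the zygote and late 2-cell tables and among the 51734 symbols of the blastocyst table. Each library was RNA from 1 embryo whose zona pellucida had been removed, made into cDNA with SMART-seq2, a method for very small RNA inputs, and sequenced from Nextera (Tn5) libraries. Every embryo, controls included, had been injected as a zygote with mRNA for the checkpoint kinase CHK1, either wild type (WT) or the mutant named R442Q in the labels, so no group lacked added CHK1. Zygotes (5 injected with WT, 6 with R442Q) and late 2-cell embryos (4 with WT, 5 with R442Q) were labelled as receiving no inhibitor, whereas all blastocysts (7 of each kind) had been cultured with a CHK1 inhibitor at 30 nM. No strain or age was given in the labels. Zygote libraries held 7183632 to 11296522 estimated counts and late 2-cell libraries 5727956 to 8916343. For blastocysts only FPKM (fragments scaled to transcript length and library size) was used and the depth is unknown. Nothing in the labels tells whether embryos of a group came from separate females, so p-values measure the spread between these embryos.

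Oogenesins are leucine-rich repeat proteins of the PRAME family, a family that is greatly multiplied in rodents, and their mRNAs are made in growing oocytes. Oocyte secreted proteins are small proteins with a signal peptide, related to the placental protein PLAC1. Both kinds of mRNA are part of the maternal store that the egg carries into the embryo. That store is broken down around the time when the embryo's own genome is switched on, which in the mouse happens mainly at the 2-cell stage.

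The injected gene was abundant in both groups of zygotes, with Chek1 at 6030 ± 2110 FPKM (SD) in the 5 WT and 6320 ± 602 in the 6 R442Q embryos. By the late 2-cell stage the means were 431 ± 148 in the 4 WT and 524 ± 285 in the 5 R442Q embryos. The summed FPKM of 10 egg genes ran from 4880 to 5780 in WT zygotes, from 510 to 1080 in WT late 2-cell embryos and to at most 6.45 in blastocysts. That of 8 trophectoderm genes ran from 36.5 to 46.0 in WT zygotes and from 3210 to 24300 in WT blastocysts. Of 9 late 2-cell markers, the summed FPKM was 155 to 1680 in WT late 2-cell embryos (median 621) and 832 to 3100 in R442Q (median 2550), so that embryos of this stage differed widely among themselves. The lowest of these lay within the zygote ranges of the same list, 108 to 210 in WT and 83.7 to 245 in R442Q. The summed FPKM of 8 inner cell mass genes was 126 to 615 in WT and 96.1 to 335 in R442Q blastocysts, and overlapped the zygotes at 63.2 to 167 in WT and 117 to 195 in R442Q.

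The 4 oogenesins lie at 3 places on 2 chromosomes, and the 3 Oosp genes side by side on another chromosome. In GENCODE M21 (GRCm38), all 7 are annotated as protein coding. Oog1 (ENSMUSG00000096576.2) is at chr12:87602688-87608850 on the plus strand. Oog2 (ENSMUSG00000066030.6, chr4:144190719-144196934, plus strand) and Oog3 (ENSMUSG00000050810.8, chr4:144157557-144162663, minus strand) are neighbours. Oog4 (ENSMUSG00000047799.15) is at chr4:143437164-143450324 on the minus strand. Oosp2 (ENSMUSG00000055895.6, chr19:11647279-11660559, minus strand), Oosp1 (ENSMUSG00000041857.10, chr19:11667460-11691150, minus strand) and Oosp3 (ENSMUSG00000055933.13, chr19:11697055-11711874, plus strand) follow each other in that order. The Oosp transcripts are short, with longest annotated forms of 972 bases for Oosp1, 677 for Oosp2 and 807 for Oosp3, against 1865 to 2451 for the oogenesins.

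The promoters show which of these genes resemble each other outside the coding sequence. RefSeq promoters (GRCm38.p6) were given for 6 of the 7 genes, all but Oosp3. Over the 250 bases before the start, the 4 oogenesin promoters were 63.9% to 76.4% identical in pairwise alignments, although Oog1 lies on another chromosome than the rest. Oosp1 and Oosp2, whose genes are neighbours, were 47.0% identical, and an oogenesin against an Oosp promoter gave 40.2% to 46.7%. The start used is that of RefSeq. Part of the Oosp1 bases compared, and a few of those of Oog3, lie within the gene as annotated in GENCODE. The following 100 bases of each oogenesin promoter carry the stretch that all 4 share, with 3 blocks in capitals: GGGTGTGG, the palindrome CAGCTG and the TATA-like TATATA.
Oog1, chr12:87602565-87602664, plus strand: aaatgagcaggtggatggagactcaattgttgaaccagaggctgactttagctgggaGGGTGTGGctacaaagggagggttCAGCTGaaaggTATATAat
Oog2, chr4:144190617-144190716, plus strand: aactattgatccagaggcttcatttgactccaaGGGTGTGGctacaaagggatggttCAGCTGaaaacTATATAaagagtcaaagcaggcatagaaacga
Oog3, chr4:144162652-144162751, minus strand: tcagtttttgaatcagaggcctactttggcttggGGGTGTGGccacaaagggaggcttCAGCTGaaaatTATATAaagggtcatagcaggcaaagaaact
Oog4, chr4:143450325-143450424, minus strand: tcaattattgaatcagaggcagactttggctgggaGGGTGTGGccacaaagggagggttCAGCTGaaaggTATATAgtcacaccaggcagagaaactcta

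In all 4, GGGTGTGG stands 16 bases before CAGCTG, and CAGCTG 5 bases before TATATA. Relative to the RefSeq start, TATATA begins at -8 in Oog1, -32 in Oog2, -31 in Oog3 and -30 in Oog4. The motifs were chosen after the sequences had been seen. On either strand within 250 bases before the start, CAGCTG was found in 12.8% of 27025 mouse genes with a listed promoter, TATATA in 5.6% and GGGTGTGG (CCACACCC on the other strand) in 3.2%. The whole arrangement, with these exact gaps, was found in 8 of the 27025 genes, or 0.0296%. These were the 4 oogenesins, Gm2042, Gm13089, Gm13084 and C87499, the last 3 listed in RefSeq as Pramel23, Pramel26 and Pramel32. The longest run shared by all 4 oogenesin promoters, TTCAGCTGAAA, was found in 13 genes (0.048%). A match is a description of letters and says nothing of a bound factor.

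The Oosp promoters are shown for contrast, with their CANNTG motifs, the general form to which CAGCTG belongs, in capitals. CANNTG was present in 66.0% of all promoters. Neither window holds TATATA, and GGGTGTGG was found in neither. The windows lie before the RefSeq start. For Oosp1 the GENCODE start, at chr19:11691150, is further upstream, so nearly all of its window lies within the gene as annotated there.
Oosp1, chr19:11691052-11691151, minus strand: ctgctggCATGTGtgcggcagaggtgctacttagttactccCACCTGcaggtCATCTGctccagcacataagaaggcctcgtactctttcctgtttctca
Oosp2, chr19:11660560-11660659, minus strand: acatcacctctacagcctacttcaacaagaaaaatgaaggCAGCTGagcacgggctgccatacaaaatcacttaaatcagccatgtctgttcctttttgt

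In WT zygotes all 7 mRNAs were abundant, and Oosp1 was among the most abundant transcripts of the cell. Levels between genes are compared in FPKM, which is per length. Oosp1 stood at 3430 ± 543 FPKM (SD, n = 5), rank 23 of all genes. Oosp3 followed at 1300 ± 233 (rank 52), Oog3 at 960 ± 104 (rank 84), Oog1 at 823 ± 129 (rank 107) and Oosp2 at 447 ± 64.5 (rank 207). The lowest were Oog2 at 297 ± 51.7 (rank 316) and Oog4 at 196 ± 16 (rank 519). The ranges over the 5 embryos overlapped for Oosp3 and Oog3, for Oog3 and Oog1, and for Oosp2 and Oog2. They did not for Oosp1 and Oosp3, for Oog1 and Oosp2, or for Oog2 and Oog4.

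Most annotated protein-coding neighbours of these genes were low or not detected. Within 200 kb of the Oosp cluster 15 other protein-coding genes were annotated and in the zygote table, of which 2 reached a mean of 1 FPKM in WT zygotes and none exceeded 38.1. Around Oog1, 4 of 9 neighbours reached 1 FPKM, with a highest mean of 90.1. Around Oog4 it was 3 of 9, with at most 42.1. Around Oog2 and Oog3 it was 4 of 10, with a highest mean of 472, that of the PRAME-family gene C87977.

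From zygote to late 2-cell, all 7 mRNAs fell in WT embryos, and they fell by very different amounts. Oog4, Oosp3 and Oosp2 fell most, while Oog3 and Oosp1 were retained best. In percent of the mean zygote CPM (counts scaled to the library total), the late 2-cell mean was 3.77% for Oog4, 6.43% for Oosp3, 6.59% for Oosp2, 16.7% for Oog2, 20.1% for Oog1, 38.1% for Oosp1 and 44.0% for Oog3. All 7 passed the threshold of edgeR's quasi-likelihood test, a Benjamini-Hochberg adjusted p of 0.05 over all genes tested, where 25.0% of all genes were called lower. The median log2 change of the 7 was -2.66, beside 0.34 for all genes. The values are relative to each library, so fewer copies in an embryo and growth of the rest of its RNA cannot be told apart. Only polyadenylated mRNA was read, so loss of an mRNA and loss of its poly(A) tail cannot be told apart either. The stage cannot be told apart from the table it came in.

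Among the oogenesins, Oog4 fell most. In WT zygotes it stood at 195, 189, 220, 199 and 176 FPKM in replicates 1 to 5, and in WT late 2-cell embryos at 11.9, 3.21, 11.1 and 2.23 in replicates 1 to 4. The late 2-cell values thus made up 2 pairs, near 11 and under 4, both far below every zygote. The log2 change was -4.84 ± 0.41 (SE), a 28.6-fold fall, with an edgeR adjusted p of 9.83e-10. Oog3 fell least, from between 843 and 1130 FPKM in 5 zygotes to 209, 383, 656 and 392 in the 4 late 2-cell embryos. Its log2 change was -1.25 ± 0.26 (edgeR adjusted p 0.000211). Oog1 changed by -2.39 ± 0.24 and Oog2 by -2.66 ± 0.31, so that the 4 oogenesins spanned 2.38-fold to 28.6-fold. With the counts of Gm13084, a gene that shares part of the Oog2 sequence, added to those of Oog2, the change was -3.99. Gm13084 made up most of that sum in WT zygotes, at a mean of 1220 CPM beside 265 for Oog2.

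Among the Oosp genes, neighbours on the chromosome also went apart. Oosp2 stood at 426, 552, 377, 429 and 453 FPKM in the WT zygotes and at 36.3, 29.0, 23.8 and 29.3 in the WT late 2-cell embryos. Its log2 change was -4.0 ± 0.29 (edgeR adjusted p 1.04e-10). Oosp3 stood at 1399, 1604, 1056, 1386 and 1080 FPKM in the zygotes and at 118, 54.5, 94.2 and 70.4 in the late 2-cell embryos, a log2 change of -4.05 ± 0.33 (edgeR adjusted p 5.17e-10). Oosp1 went from 3237, 4319, 3017, 3536 and 3019 FPKM to 1290, 945, 2569 and 1249, and its highest late 2-cell embryo, replicate 3, came near the lowest zygote. Its log2 change was -1.48 ± 0.32, a 2.78-fold fall (edgeR adjusted p 0.000377).

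**Figure D1:**
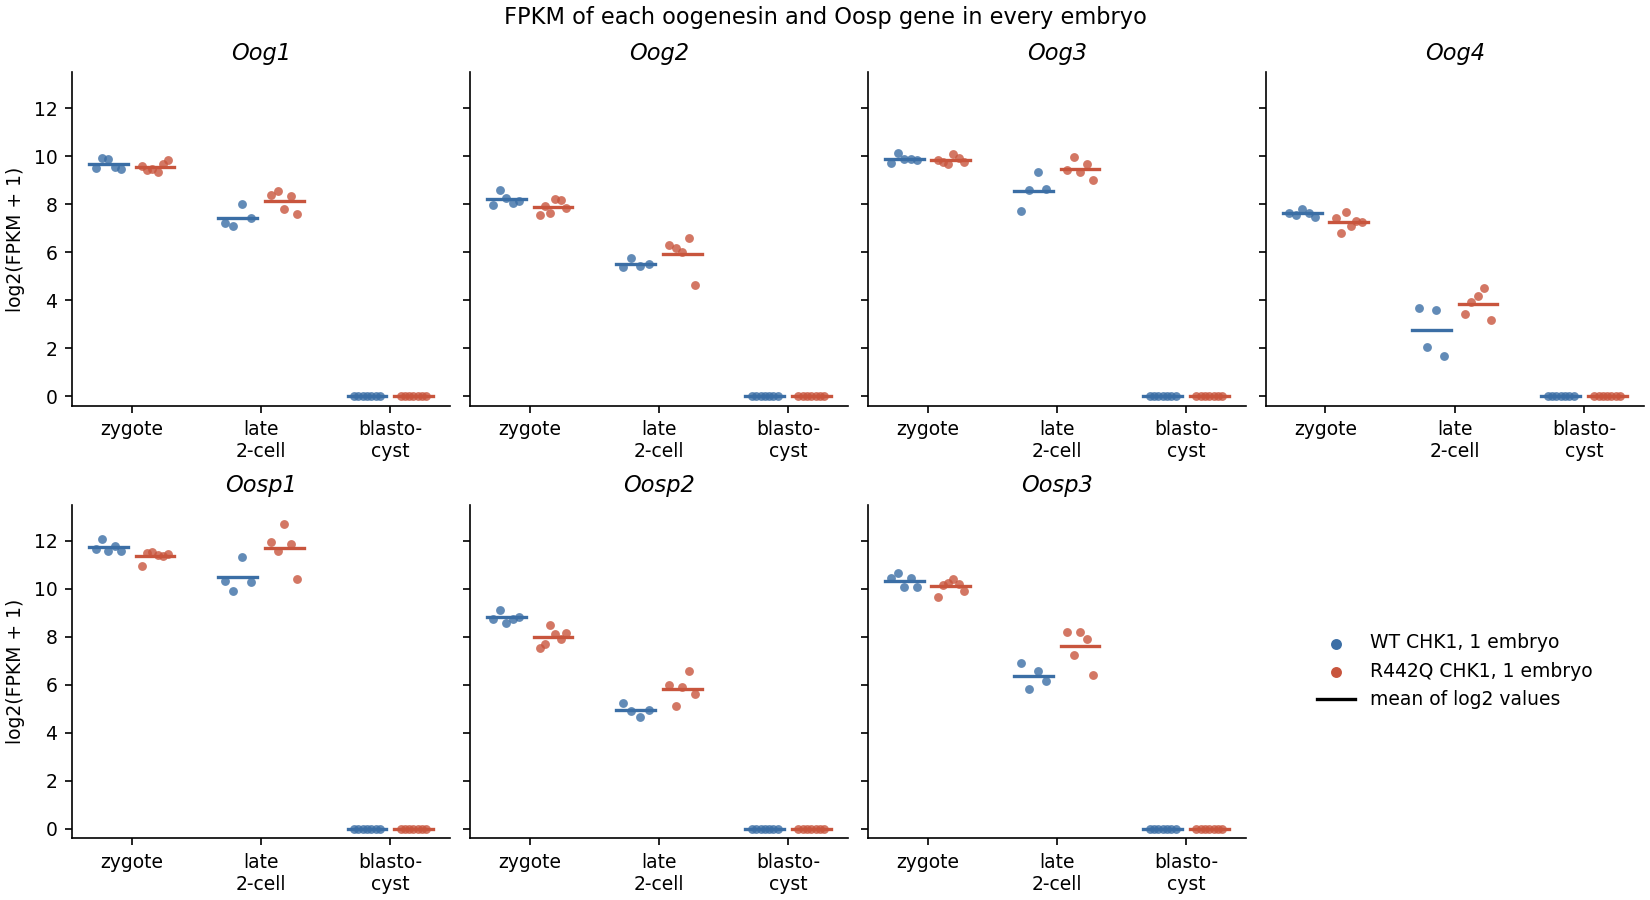
FPKM of the 7 genes in each of the 34 embryos, on a log2(FPKM + 1) axis, by stage and by injected CHK1 (WT in blue, R442Q in red); each point is 1 embryo and each line the mean of the log2 values. All 7 genes were lower in WT late 2-cell embryos than in WT zygotes, Oog4 most and Oosp1 and Oog3 least, and all 14 blastocysts sit at 0.

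The make-up of each family therefore changed between the stages. Oosp1 held 66.2% ± 1.40 of the summed FPKM of the 3 Oosp genes in WT zygotes (SD, n = 5) and 92.4% ± 2.60 in WT late 2-cell embryos (SD, n = 4). Oosp3 went from 25.2% ± 1.65 to 5.55% ± 1.94 and Oosp2 from 8.68% ± 0.739 to 2.10% ± 0.850. For none of the 3 did the zygote and late 2-cell ranges overlap. In R442Q embryos Oosp1 held 66.1% ± 2.47 in zygotes (SD, n = 6) and 92.8% ± 1.77 in late 2-cell embryos (SD, n = 5), so the shares of Oosp1 in the 2 genotypes were within 1 SD of each other at both stages. The share of Oosp2 in zygotes was lower in R442Q, at 6.39% ± 1.03 (4.92% to 7.96%) against 8.01% to 9.95% in WT, ranges that did not overlap. That of Oosp3 in R442Q zygotes was 27.5% ± 2.58. In R442Q late 2-cell embryos the shares were 1.77% ± 0.980 for Oosp2 and 5.46% ± 1.07 for Oosp3, within 1 SD of WT. Among the 4 oogenesins, Oog3 rose from 42.3% ± 2.01 to 62.6% ± 7.71 of their summed FPKM in WT, and Oog4 went from 8.69% ± 1.0 to 1.25% ± 1.16. In R442Q embryos Oog3 went from 44.4% ± 3.52 to 66.7% ± 3.19 and Oog4 from 7.51% ± 1.68 to 1.29% ± 0.430. The shares are descriptions of FPKM with no test, and no like measure was made over all genes. Within a family they add up to the whole, so they are not separate results.

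**Figure D2:**
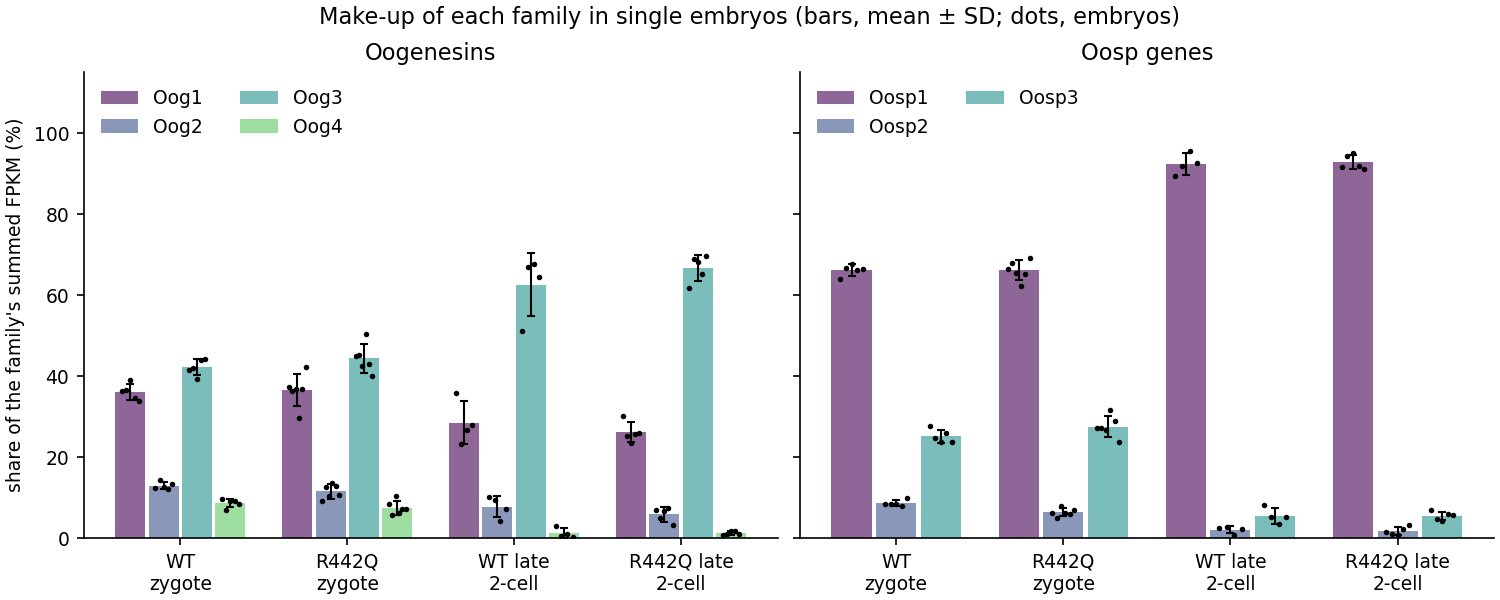
Share of each gene in the summed FPKM of the 4 oogenesins (left) and of the 3 Oosp genes (right), in percent, by group; bars are means, error bars 1 SD and dots single embryos. The Oosp1 share was 66.2% in WT zygotes and 92.4% in WT late 2-cell embryos, and 66.1% and 92.8% in R442Q.

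In zygotes, R442Q embryos held less Oosp2 than WT embryos, and the other 6 genes did not pass the threshold. Oosp2 was at 184, 255 and 357 FPKM as the lowest, median and highest of the 6 R442Q zygotes, all below the lowest WT zygote at 377. The log2 difference (R442Q over WT) was -0.65 ± 0.14 (SE), 1.57-fold lower, with an edgeR adjusted p of 0.00624. That is 1 of 7 genes called, where 13.2% of all genes were called in either direction and 6.92% lower, so the count is near the background. Oosp2 stayed under the threshold without any 1 of the 11 zygotes (edgeR adjusted p 0.00156 to 0.0206). It lost the call when both stages were fitted together (edgeR adjusted p 0.202, log2 difference -0.62).

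Oosp1 was also lower in every R442Q zygote than in any WT zygote. Its R442Q values had a lowest of 1950, a median of 2740 and a highest of 2930 FPKM, against 3017 to 4319 in WT. The log2 difference was -0.33 ± 0.11, and its edgeR adjusted p of 0.0511 missed the threshold. It passed with no filter on low counts (0.0400), without WT zygote replicate 3 (0.0394) and with limma on FPKM (limma adjusted p 0.0483). In edgeR it did not pass with each library's trends on gene length and GC content removed (0.0851) or with a replicate block (0.0744). Nor did it with both stages fitted together (0.792). Groups that did not overlap in this direction were found for 6.84% of all genes. In R442Q zygotes the lowest Oosp1 value was that of replicate 1. Without that embryo the difference was -0.26 (edgeR adjusted p 0.105). The summed FPKM of 10 cumulus and granulosa markers was also lower in R442Q zygotes, at 12.6 to 16.7 against 18.1 to 20.6 in WT, with Amh at 0 in all zygotes of both groups and Ptx3, Inha and Hsd3b1 at 0 in all WT zygotes. The summed FPKM of the 10 egg markers was 4510 to 5750 in R442Q and 4880 to 5780 in WT. The part of these in the 2 Oosp differences was not tested.

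The remaining 5 genes gave log2 differences in zygotes from -0.20 ± 0.13 for Oog4 to 0.08 ± 0.10 for Oog3, with edgeR adjusted p from 0.359 to 0.860. Oog1 differed by 0.04 ± 0.10, Oog2 by -0.15 ± 0.12 and Oosp3 by -0.14 ± 0.13. The median of the 7 was -0.15, beside 0.01 for all genes.

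At the late 2-cell stage all 7 fitted differences were above 0, that is towards more mRNA in R442Q embryos, and none passed the threshold in edgeR, where 4.18% of all genes were called and 1.22% were called higher. The unadjusted p was under 0.05 for 5 of the 7, all but Oog2 and Oog4, where 21.0% of all genes were under it and 10.2% were under it and higher. With each library's trends on gene length and GC content removed, Oosp2 and Oog2 went below 0 (-0.20 and -0.03), the other 5 lay between 0.13 and 0.61, and none was called. The largest difference was that of Oosp3, at 1.41 ± 0.40 (edgeR adjusted p 0.0619). Oosp1 differed by 1.28 ± 0.42 (0.0994), Oog4 by 1.07 ± 0.55 (0.289) and Oosp2 by 1.01 ± 0.43 (0.193), each with its edgeR adjusted p. Oog3 differed by 0.89 ± 0.35, Oog1 by 0.71 ± 0.32 and Oog2 by 0.56 ± 0.40. The median of the 7 was 1.01, beside 0.07 for all genes. The medians of other lists of egg transcripts at this stage, described further on, were 0.80 for PRAME-family relatives, 0.78 for egg coat and surface proteins, 0.72 for other egg-enriched transcripts and 0.35 for oocyte transcription factors. DESeq2, the other count test, called 2 of them, Oosp1 (adjusted p 0.0182) and Oosp3 (adjusted p 0.00913), and the edgeR fit of both stages together called 4, Oog3, Oosp1, Oosp2 and Oosp3. Over all genes, the number called at this stage went from 580 to 1683 with DESeq2 and to 2507 with both stages fitted together. Single embryos show how wide the groups were. Oosp1 ran at 3932, 3068, 6564, 3691 and 1347 FPKM in R442Q replicates 1 to 5, and all but the last exceeded the highest WT embryo at 2569. Oosp3 ran at 293, 150, 287, 240 and 84.4 against 118, 54.5, 94.2 and 70.4 in WT. R442Q replicate 5 was the lowest of its group for Oog1, Oog2, Oog3, Oog4, Oosp1 and Oosp3, and without it 2 of the 7 were called (Oosp1 at an edgeR adjusted p of 0.0482 and Oosp3 at 0.0307). For each of the 7 the genotypes overlapped, while 3.67% of all genes had groups that did not overlap with R442Q the higher.

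Over the same interval in R442Q embryos, 5 of the 7 mRNAs fell and passed the threshold, where 29.8% of all genes were called lower. The 2 exceptions were Oog3, at a log2 change of -0.51 ± 0.23 (edgeR adjusted p 0.0503), and Oosp1, at 0.07 ± 0.28 (edgeR adjusted p 0.841). The fall of Oog3 was called without 7 of the 20 embryos, each left out alone. It was also called when each library's trend on gene length (-0.90, edgeR adjusted p 0.00154), on GC content (-0.51, 0.0447) or on both (-1.06, 0.000154) was removed. The count of 5 went to 7 with the length trend or both trends removed. In percent of the mean zygote CPM, R442Q late 2-cell embryos held 9.16% of Oog4, 19.1% of Oosp3, 21.1% of Oosp2, 28.0% of Oog2, 32.5% of Oog1, 79.7% of Oog3 and 120% of Oosp1. From least to most retained in CPM, the genes stood in the same order as in WT, except that Oog3 and Oosp1 had changed places at the top. In FPKM Oosp1 stood above Oog3 in both genotypes. There limma gave log2 changes of -1.27 for Oosp1 and -1.33 for Oog3 in WT, and of 0.34 and -0.35 in R442Q. Oosp3 changed by -2.58 ± 0.28 and Oosp2 by -2.43 ± 0.24, a 6.0-fold and a 5.37-fold fall, where WT embryos had shown 16.6-fold and 16-fold. With length and GC trends removed, the log2 changes in R442Q were -3.87 for Oosp3 and -3.57 for Oosp2, beside -4.07 and -3.93 in WT under the same correction.

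The difference between the 2 stage changes was tested as an interaction of genotype and stage. In edgeR it passed for the 3 Oosp genes and for none of the oogenesins. That is 3 of 7 called, all higher, where 10.1% of all genes were called and 3.07% were called higher. Oosp2 gave a log2 interaction of 1.57 ± 0.35 (edgeR adjusted p 0.00530), Oosp1 of 1.55 ± 0.42 (0.0203) and Oosp3 of 1.47 ± 0.38 (0.0167). The oogenesins gave 1.20 ± 0.46 for Oog4 (edgeR adjusted p 0.104), 0.74 ± 0.33 for Oog3 (0.170), 0.64 ± 0.39 for Oog2 (0.321) and 0.60 ± 0.31 for Oog1 (0.229). DESeq2 called Oog4 as well (1.36, adjusted p 0.0340), and limma on FPKM called Oog4 (1.44, adjusted p 0.0476) and Oog3 (0.98, adjusted p 0.0460). Whether the Oosp genes and the oogenesins differ from each other in this was not tested. The interaction shares its samples with both genotype comparisons and both stage changes, so these are not separate evidence. The calls of the 3 Oosp genes held without any 1 of the 20 embryos, with edgeR adjusted p from 0.00130 to 0.0441 for Oosp1, from 0.00153 to 0.0112 for Oosp2 and from 0.00130 to 0.0361 for Oosp3. The count of 3 went to 6 without WT late 2-cell replicate 3 and to 5 without R442Q late 2-cell replicate 3 or replicate 5. Of all genes called in the interaction, 497 of 1639 were higher, and 707 of 1624 with the size factors of DESeq2 in place of TMM, under which the Oosp values were 1.71, 1.74 and 1.64 and stayed called.

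**Figure D3:**
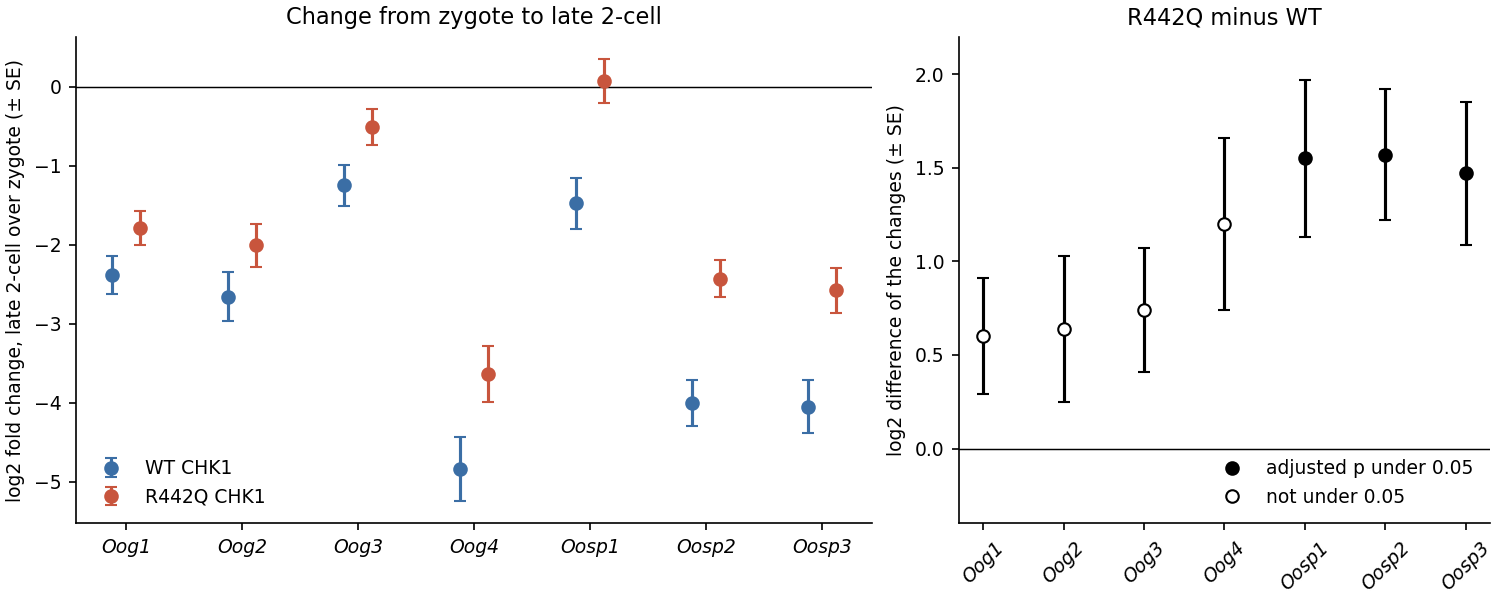
Left, log2 fold change from zygote to late 2-cell for each gene in WT (blue) and R442Q (red) embryos, with SE bars; right, the difference of these changes (R442Q minus WT), with SE bars and filled points where the edgeR adjusted p was under 0.05. The 3 Oosp genes, at 1.47 to 1.57, are filled and the 4 oogenesins, at 0.60 to 1.20, are open.

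Gene length moved with the late 2-cell difference. Over all tested genes, the median genotype log2 difference at this stage was 0.86 for the 1131 genes with transcripts under 1000 bases, 0.47 for 2558 genes of 1000 to 2000 bases, -0.02 for 5468 genes of 2000 to 4000 bases and -0.27 for 4627 longer genes. In zygotes the same medians lay between -0.02 and 0.01. All 3 Oosp genes have transcripts under 1000 bases, the class with the highest median. The summed FPKM, which rises when reads fall on short genes, averaged 733250 in WT and 893448 in R442Q late 2-cell embryos. When each library's smooth trend on length and GC content was removed before the fit, the late 2-cell difference fell to 0.23 for Oosp1, 0.13 for Oosp3 and -0.20 for Oosp2, and to between -0.03 (Oog2) and 0.61 (Oog4) for the oogenesins. The interactions fell to 0.56 for Oosp1 (edgeR adjusted p 0.460), 0.36 for Oosp2 (0.538) and 0.20 for Oosp3 (0.816), and 0 of 7 were called, with none of the 3 Oosp genes under an adjusted p of 0.05.

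For the 3 Oosp genes, removing the trend on length moved the interaction further than removing that on GC content. With the trend on GC content alone removed, the interactions were 1.44 for Oosp1, 1.46 for Oosp2 and 1.20 for Oosp3, and all 3 calls stayed (edgeR adjusted p 0.0214, 0.0152 and 0.0443). With the trend on length alone removed they were 0.96, 0.76 and 0.76, and all 3 were lost (0.174, 0.108 and 0.220). The change of Oosp1 in R442Q from zygote to late 2-cell went from 0.07 to -0.96 with both trends removed and then passed the threshold (edgeR adjusted p 0.00412). The zygote difference of Oosp2 kept its call under each of these corrections, at -0.62 for GC content alone, -0.60 for length alone and -0.60 for both. The fall of all 7 genes in WT embryos also kept its calls under all 3.

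**Figure D4:**
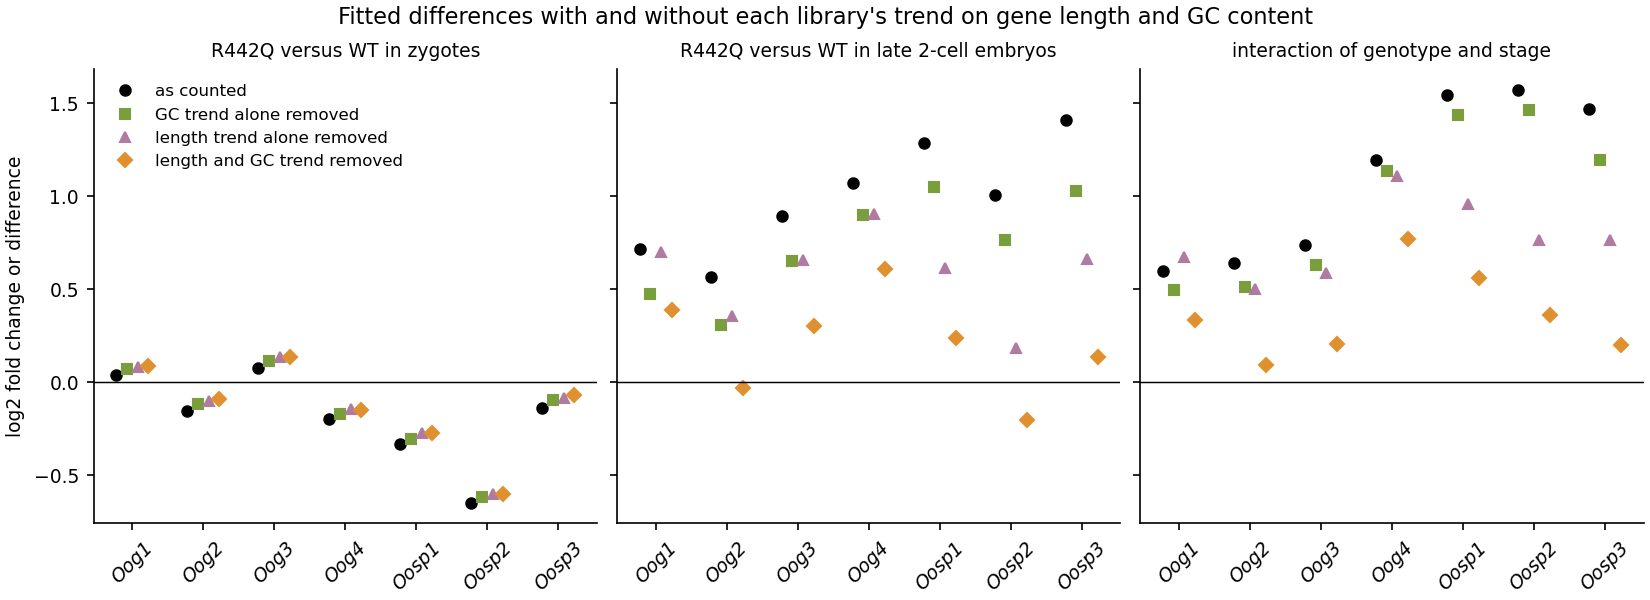
Log2 genotype difference in zygotes (left) and late 2-cell embryos (middle) and log2 interaction (right) for each gene, as counted and after removing each library's trend on GC content, on length, or on both. The zygote values hardly move, while the late 2-cell values of Oosp1, Oosp2 and Oosp3 go from 1.28, 1.01 and 1.41 to 0.23, -0.20 and 0.13 with both trends removed.

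How well a read can be assigned differs between these genes. Of the 50-base stretches in the annotated transcripts of Oog1, 89.0% also occur in other genes, 85.8% in Gm2042 and 58.6% in Gm10436, which lie on the same chromosome. For Oog2 it is 33.4%, of which Gm13084 accounts for 30.1%. For Oog3 it is 19.7%, mostly in the processed pseudogene Gm4350, for Oog4 0.707%, for Oosp3 1.46%, and for Oosp1 and Oosp2 none. The estimated counts of Oog1 and Oog2 therefore rest on how reads were shared among copies, and the Oog1 values in particular are uncertain. Gm19224, a pseudogene on the opposite strand inside Oosp3, had 0 counts in all zygotes and late 2-cell embryos. With genes that hold at least 10% of these stretches summed in, the genotype difference of Oog1 in zygotes went from 0.04 to -0.01. The stage change of Oog2 in WT went from -2.66 to -3.99, a sum that was mostly Gm13084.

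Of the 6 copies that held at least 10% of these stretches of an oogenesin, 5 were themselves abundant in zygotes. The other, Gm4350, reached at most 0.34 FPKM in any zygote. In WT zygotes Gm13023 stood at 1210 ± 85.5 FPKM, Gm2042 at 1020 ± 36.2, Gm10436 at 974 ± 69.7, Gm13084 at 799 ± 134 and C87977 at 472 ± 74.2 (SD, n = 5 each). Their retention differed as much as that of the oogenesins. The log2 stage change in WT was -1.37 ± 0.22 for Gm10436, -1.84 ± 0.25 for Gm2042, -3.35 ± 0.27 for Gm13023, -4.40 ± 0.25 for Gm13084 and -4.93 ± 0.35 for C87977. Each passed the threshold (edgeR adjusted p 1.44e-05, 1.37e-06, 5.27e-10, 2.23e-12 and 7.16e-11).

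All 4 other genes that share the oogenesin promoter arrangement were expressed in zygotes and lower in late 2-cell embryos. C87499 stood at 443 ± 108 FPKM in WT zygotes (SD, n = 5) and 12.8 ± 4.40 in WT late 2-cell embryos (SD, n = 4), a log2 change of -5.39 ± 0.40 (edgeR adjusted p 1.02e-10). Gm13089, the lowest, stood at 56.5 ± 17.8 and 5.40 ± 5.59, a change of -3.41 ± 0.62 (edgeR adjusted p 6.09e-05). With Gm2042 and Gm13084 above, all 8 genes of the arrangement fell in WT and passed the threshold, by log2 changes from -1.25 to -5.39, where 25.0% of all genes were called lower. The arrangement was drawn from the 4 oogenesins, and Gm2042 and Gm13084 share sequence with Oog1 and Oog2, so the 8 are not separate results. Of 26 other egg-enriched transcripts, listed without regard to it, 24 fell as well. Any part of the arrangement in the fall was not tested. In blastocysts 6 of the 8 were listed at 0 in all 14 embryos, and Gm2042 and Gm13089 reached at most 1.01 and 0.19 FPKM. In R442Q late 2-cell embryos C87499 was higher than in WT, at 46.0 ± 24.4 FPKM (SD, n = 5), with a log2 difference of 1.91 ± 0.46 (edgeR adjusted p 0.0333) and an interaction of 2.03 ± 0.43 (edgeR adjusted p 0.00457). With length and GC trends removed, the late 2-cell difference of C87499 was 1.42 and lost its call (edgeR adjusted p 0.125), while the interaction was 1.54 and kept it (0.0262). Gm13089 was lower in R442Q zygotes, at 31.2 ± 4.74 FPKM (SD, n = 6), with a log2 difference of -0.72 ± 0.19 (edgeR adjusted p 0.0175).

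Other PRAME-family genes went both ways. Of 20 tested in the joint fit, 11 rose and 6 fell from zygote to late 2-cell in WT, where 36.2% of all genes were called higher and 25.0% lower. Pramel7, which acts in early embryos and pluripotent cells, rose by 8.87 ± 0.54 on the log2 scale (edgeR adjusted p 6.25e-12), and Pramef20 changed by -5.51 ± 0.35 (edgeR adjusted p 1.02e-11). At the late 2-cell stage 1 of 20 was called between genotypes, C87499, where 4.18% of all genes were called. In zygotes 4 of 14 were called higher and 3 lower in R442Q, where 6.30% of all genes were called higher and 6.92% lower, among them BC061212 at 3.48 ± 0.66 and E330014E10Rik at -0.66 ± 0.15 (edgeR adjusted p 0.00274 and 0.00731). BC061212 was low in both groups, at 0.368 ± 0.29 FPKM in WT zygotes (SD, n = 5) and 3.83 ± 3.2 in R442Q zygotes (SD, n = 6). E330014E10Rik stood at 75.9 ± 9.37 and 44 ± 11.4 FPKM in the same groups. The median difference of this list in zygotes was -0.18, beside 0.01 for all genes.

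The egg coat and other secreted or surface proteins of the egg are the group to which the Oosp proteins are nearest in kind. Of 13 tested, 4 were lower and 0 higher in R442Q zygotes, where 6.92% of all genes were called lower. Zp3, a zona pellucida glycoprotein, differed by -1.35 ± 0.17 (edgeR adjusted p 0.000200), the growth factor gene Fgf8 by -1.25 ± 0.18 (0.000518) and Zp1 by -0.71 ± 0.18 (0.0145). Izumo1r, which encodes the egg's receptor for sperm (JUNO), differed by -0.47 ± 0.11 (0.0113). From zygote to late 2-cell in WT, 9 of 13 fell and 1 rose, beside 25.0% of all genes called lower, with Izumo1r at -5.71 ± 0.49 and the oocyte growth factor gene Bmp15 at -3.45 ± 0.32 (edgeR adjusted p 1.19e-09 and 4.25e-09). The interaction was called for 2 of 13, both higher, Zp1 at 1.38 ± 0.44 and Zp2 at 1.01 ± 0.32 (edgeR adjusted p 0.0466 and 0.0486), where 3.07% of all genes were called higher. With length and GC trends removed, Zp1 stayed called (1.57, edgeR adjusted p 0.0328) and Zp2 did not (0.81, 0.139). The median interaction of this list was 1.26, beside -0.16 for all genes and 1.20 for the 7 genes.

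Most transcription factors of the oocyte also fell between the stages. Of 12 tested, 9 fell and 3 rose from zygote to late 2-cell in WT, where 25.0% of all genes were called lower and 36.2% higher. Among those that fell were Nobox, a homeobox factor needed for oocyte gene expression, at -4.23 ± 0.26 and the homeobox gene Obox1 at -5.05 ± 0.25 (edgeR adjusted p 6.06e-12 and 5.72e-13). The interaction was called for 2 of 12, beside 10.1% of all genes, namely Taf4b (-1.89 ± 0.56) and Obox5 (1.10 ± 0.34), in opposite directions (edgeR adjusted p 0.0337 and 0.0396), and neither call was kept with length and GC trends removed (-1.55 and 0.53, edgeR adjusted p 0.107 and 0.345).

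Of 26 other egg-enriched transcripts, 24 fell and none rose in WT, and 22 fell and 2 rose in R442Q, where 25.0% and 29.8% of all genes were called lower. The interaction was called higher for 6 of 26 and lower for 0, where 3.07% of all genes were called higher. The widest was Ooep, a component of the subcortical maternal complex, with an interaction of 3.04 ± 0.33 (edgeR adjusted p 7.24e-06), a zygote difference of -0.82 ± 0.12 (edgeR adjusted p 0.000726) and a late 2-cell difference of 2.29 ± 0.35 (edgeR adjusted p 0.00649). Nlrp14, a NOD-like receptor gene of the oocyte, had an interaction of 1.75 ± 0.39 (edgeR adjusted p 0.00615) and a zygote difference of -1.12 ± 0.20 (edgeR adjusted p 0.00205). With length and GC trends removed, the interactions of Ooep and Nlrp14 were 2.78 and 1.84 and stayed called (edgeR adjusted p 2.84e-05 and 0.00659). In zygotes 5 of the 26 were called higher and 8 lower, beside 6.30% and 6.92% of all genes.

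The genes most like each of the 7 over all 34 embryos were sought across the stages. By Pearson's r of log2(FPKM + 1), among 17172 genes, Oosp2 was nearest to the F-box gene Fbxw28 and the homeobox gene Obox2 (r = 0.996 for both). Obox2 had 870 ± 36.9 FPKM in WT zygotes, 420 ± 101 in R442Q zygotes, 23.9 ± 3.32 in WT and 62.8 ± 26.3 in R442Q late 2-cell embryos. Oosp1 was nearest to Gm839 (0.998) and D6Ertd474e (0.997), which stood at 308 ± 57.8 and 280 ± 30.8 FPKM in WT zygotes. Oosp3 was nearest to Kif17, a kinesin gene, and Tcl1b2 (0.997 and 0.996). Oog1 was nearest to Arhgap20os and Nlrp9c (0.999 and 0.998), Oog2 to Btg4, which acts in clearing maternal mRNA, and Gm13023 (0.997 for both), Oog3 to Gm10436 and D6Ertd474e (0.999 and 0.998), and Oog4 to Ifitm6 and Gm3259 (0.994 and 0.993). The embryos fall into stages, so these r describe a shared stage pattern, with no p.

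Within groups, after each group's mean was subtracted, Oosp1 and Oosp3 varied together over the 20 zygotes and late 2-cell embryos (r = 0.81). Oosp2, which lies on the other side of Oosp1, varied less with either (0.24 with Oosp1, 0.51 with Oosp3). Among the oogenesins the highest value was 0.68, for Oog1 and Oog3, which lie on different chromosomes, while Oog2 and Oog3, which are neighbours, gave 0.45. By this measure Oosp1 was most like Tmem35b (0.93), Oog4 most like Bbs5 (0.93) and Oog1 most like its copy Gm2042 (0.85). Genes of 1 library share its depth and its length trend, and no p is given. The nearest genes are the highest values of a search over all genes compared, in 20 embryos, and such a search by itself yields high r.

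In blastocysts all 7 genes were listed at 0 FPKM in all 14 embryos, so they were not tested. Abundant housekeeping mRNAs were measured in the same libraries, with a lowest value of 3780 FPKM for Actb, 336 for Hprt and 1630 for Eef1a1. Of the 1088 genes listed in the tables of all 3 stages with a mean of at least 100 FPKM in WT zygotes, 76 (6.99%) were listed at 0 in every blastocyst, and all 7 genes were among them. No fold change can be given against 0 FPKM without a depth.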

How the data were processed

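RNA of single mouse embryos was measured in 34 libraries, grouped by their titles. The deposited estimated counts per gene (zygote and late 2-cell) and the deposited FPKM values (all 3 stages) are the authors', and the submitters' processing notes name RSEM and mm10 without roles or versions. SMART-seq2 primes on poly(A), so polyadenylated mRNA was read. Strand use is not given in the sources used here. The 7 genes and the gene lists were chosen with earlier results of these data known.

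Counts were rounded and tested with edgeR 4.0.16 (R 4.3.3): filterByExpr with a minimum count of 10, TMM scaling, quasi-likelihood test, Benjamini-Hochberg threshold 0.05. Genotypes were fitted within each stage. Stage changes and the interaction came from 1 model of 4 groups. Blastocysts were tested with limma 3.58.1 on log2(FPKM + 1), keeping genes that reached an FPKM of 1 in 7 or more embryos, and log2 fold changes on that scale understate low genes. The tests were tested on simulated data. Alternatives were DESeq2 1.42.0 and its size factors, no filter, limma on FPKM, removal of lowess trends (span 0.3) on length and GC content, a replicate block, and each embryo left out. Summed copies and single trends were added after seeing the data.

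Positions and transcripts are from GENCODE M21, in which 98.4% of the zygote and late 2-cell symbols and 92.1% of the blastocyst symbols were found. Shared sequence was counted in stretches of 50 bases. Genes named from each list were up to 4 past the threshold with the smallest p. Likeness was computed over genes that reached an FPKM of 1 in 4 or more embryos. Depth limits the precision of the lowest values, such as Oog4 in WT late 2-cell embryos, with 23 to 128 counts per embryo, and no molecular identifiers mark single molecules.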

Additional observations from a re-analysis of the deposited data

Results flagged for a closer look

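In R442Q zygotes, Oosp1 of replicate 1 stood at 1130 CPM, with the other 5 embryos between 1555 and 1764. The gap to its nearest neighbour exceeded the 95% limit of Dixon's test for a far value in a group of 6. Chance gives such a value in about 1 in 20 groups, so 1 among the 28 combinations of gene and group examined is no more than chance gives. The same embryo was also the lowest of its group for Oog2, Oosp2 and Oosp3, at 188, 184 and 800 FPKM.

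The genotype difference changed between zygotes and late 2-cell embryos for the 3 Oosp genes, by a log2 interaction of 1.55 for Oosp1, 1.57 for Oosp2 and 1.47 for Oosp3. Each passed edgeR's test of the interaction, and each was lost when the trend on gene length was removed.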

How the results depend on the processing

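The fall of all 7 genes in WT embryos kept its direction and its call under every alternative run. In R442Q, Oosp1 stood at 0.07 and became negative with both trends removed (-0.96), the length trend alone removed (-0.805), the replicate block (-0.083) and without 1 embryo (lowest -0.11, highest 0.32). In zygotes the number of the 7 genes called was 1 and became 2 with no filter and with limma on FPKM, and 0 with both stages fitted together, where all genes called went from 1643 to 270. Without 1 zygote it ran from 1 to 2. Oog1 (0.04) reversed to -0.112 with limma on FPKM, -0.009 with the block, -0.008 with copies summed and to between -0.006 and 0.082 without 1 embryo, and Oog3 (0.08) to -0.06 with limma on FPKM. In late 2-cell embryos the number called was 0 and became 1 with no filter, 2 with DESeq2 and 4 with both stages fitted together, and it ran from 0 to 2 without 1 embryo. All genes called there went from 580 to 889 with no filter, 1683 with DESeq2, 2507 with both stages together and 191 with both trends removed. With both trends removed, Oog2 reversed to -0.031 and Oosp2 to -0.20. The number of interactions called was 3 and became 0 with both trends or the length trend removed, 4 with DESeq2 and 5 with limma on FPKM, and it ran from 3 to 6 without 1 embryo. All genes called in the interaction went from 1639 to 1020 with both trends removed and 2446 with DESeq2. The number of falls called in R442Q was 5 and became 6 with the GC trend removed and 7 with the length trend or both removed. Size factors of DESeq2 in edgeR moved the median interaction of all genes from -0.16 to -0.01. The causes were not tested.

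Replicate numbers are those of the titles, and the data columns of some zygotes and late 2-cell embryos carry other numbers. Embryos with the same title number did not vary together. Their r ran from -0.057 to 0.062 in zygotes, from -0.144 to 0.206 in late 2-cell embryos and from -0.168 to 0.204 in blastocysts. The title numbers were therefore not taken as pairs, and pairing by the column numbers was not tested. With a block on the title numbers, the genes called were 1 of 7 in zygotes and 0 of 7 in late 2-cell embryos. They were 7 and 5 of 7 for the stage changes in WT and R442Q and 3 of 7 for the interaction. All genes called went to 1217 in zygotes, 58 in late 2-cell embryos and 1044 for the interaction. With the block and both trends removed, Oosp2 in late 2-cell embryos was at -0.16.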
